A study of Mus musculus with 21 samples.

Results

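Mouse hepatocytes cultured for 2 days after isolation (pHeps) were compared with mouse embryonic fibroblasts (MEF) by RNA sequencing. All libraries carrying these 2 labels were taken, namely pHeps 1 and 2 and MEF 1, 2 and 3, which are 5 of the 21 libraries of a study on turning fibroblasts into hepatocyte-like cells with small molecules. The pHeps came from wild-type liver. The labels give no strain, age, medium or number of animals for them, and no uncultured hepatocytes or whole liver are among the libraries, so loss or gain during culture could not be measured and only levels are described. The MEF were wild-type embryonic fibroblasts grown in DMEM with 10% FBS. The pHeps and the MEF were deposited in separate count tables, so table and cell type cannot be told apart. For that reason levels in the C6F5UE-C6F(L)V libraries (n = 3), the other group in the table of the pHeps, are given beside some results. These are wild-type embryonic fibroblasts treated with CHIR99021 (20 µM), Forskolin (50 µM), 616452 (10 µM), EPZ004777 (5 µM), CH55 (1 µM) and UNC0638 (0.05 µM) in a reprogramming medium holding serum, serum replacement and bFGF. From day 4 they were kept in a hepatocyte medium with serum, ITS, 1 µM dexamethasone, nicotinamide, FGF4, HGF and EGF, to which CHIR99021, 616452 and Forskolin were added, at first at the same doses and later at 3, 2 and 2 µM, together with 50 µg/ml vitamin C.

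Hepatocytes make most plasma proteins, dispose of nitrogen through the urea cycle, balance blood sugar and lipids, and oxidise drugs with cytochrome P450 enzymes. A network of liver-enriched transcription factors around HNF4A, the FOXA proteins and CEBPA keeps these genes active. Once isolated and plated, hepatocytes are known to lose part of this programme, P450 genes early among it, while cytoskeletal, stress, inflammatory and growth genes come on, a process called dedifferentiation.

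Total counts were 10.52 and 11.14 M in the pHeps and 11.63, 12.19 and 12.32 M in the MEF. The pHeps libraries correlated with each other at r = 0.992 on the log scale across genes, and MEF pairs at 0.996. The labels do not state separate cultures or animals for the libraries, so p-values measure only the spread between libraries within groups, which may be technical. That spread was estimated over all 21 libraries of the study, not from the pHeps and MEF libraries alone. Ribosomal protein genes took 8.72% and 8.26% of counts in the pHeps and 2.76% to 2.85% in the MEF, and mitochondrially encoded genes took 0.734% and 0.859% against 1.35% to 1.5%. The exact 95% intervals of these shares reach at most 0.017 percentage points to either side and cover counting error only. The part of these 2 differences in the results below was not tested.

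Levels are library-scaled counts (CPM, with trimmed mean of M values scaling), and levels per gene length (TPM) where genes are compared with one another. Genes were called higher or lower at a Benjamini-Hochberg adjusted p under 0.05 in edgeR's quasi-likelihood test together with a log2 fold change of 1 or more in either direction. Of 18605 genes tested, 24.4% were called higher in pHeps and 27.2% lower, 51.6% in all, so roughly every other gene is the background for each count below. The median log2 fold change of all genes was -0.03. Where one group holds no count, the fold is a lower bound against a floor of 3 counts over the group, and where it holds 1 to 3 counts, the ratio has an exact 95% interval. Such a bound falls by itself when a library at 0 is left out.

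Secreted plasma proteins stood out most. All 25 listed genes were called higher in pHeps, with a median log2 fold change of 12.52, or 10.97 with the 14 genes at 3 or fewer MEF counts set to their bound or count ratio. Alb, which encodes serum albumin, was at 16655 and 18172 CPM in pHeps 1 and 2, while the 3 MEF libraries held 1 count together. The ratio was 607060 (exact 95% interval 108950 to 23978000), and without MEF 1, which held that count, it was at least 136880-fold. Fgb, a fibrinogen chain, was at 4795 and 5254 CPM with no count in MEF, at least 58388-fold higher. Apoa1, the main protein of high-density lipoprotein, was at 2825 and 2522 CPM, again with none in MEF, at least 31014-fold higher. Neither pHeps library overlapped any MEF library for these genes, as held for 38.7% of all tested genes with pHeps higher and for 41.7% with pHeps lower. Ttr, the thyroid hormone and retinol carrier transthyretin, was at 590.4 and 547 CPM and at least 6602-fold higher. Hpx, which binds free haem, was at 4705 and 5622 CPM against 0.976, 0.514 and 0.841 in MEF, a log2 fold change of 12.68 ± 0.85 SE. Ambp, the precursor of bikunin and alpha-1-microglobulin, was at 3071 and 3399 CPM against 0.799, 0.428 and 0.589, with 12.36 ± 1.14 SE. By TPM the least abundant plasma protein gene of the list in pHeps was Serpinc1, which encodes antithrombin, at 14.2 and 12.98 TPM, followed by Itih1, an inter-alpha-trypsin inhibitor chain, at 16.2 and 19.6 TPM. The listed genes took 4.31% and 4.61% of all pHeps counts and 0.00113% to 0.00153% of MEF counts. In the C6F5UE-C6F(L)V libraries Alb was at 11865, 7573 and 9383 CPM and Apoa1 at 14391, 12160 and 11718 CPM.

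The Alb promoter is shown because Alb was the most abundant plasma protein gene of the pHeps. The RefSeq sequence holds 300 bases around the gene's start, on the plus strand at chr5:90460620-90460919 of GRCm38.p6. Capitals mark the 2 CCAAT boxes, 1 of them on the other strand.
Alb: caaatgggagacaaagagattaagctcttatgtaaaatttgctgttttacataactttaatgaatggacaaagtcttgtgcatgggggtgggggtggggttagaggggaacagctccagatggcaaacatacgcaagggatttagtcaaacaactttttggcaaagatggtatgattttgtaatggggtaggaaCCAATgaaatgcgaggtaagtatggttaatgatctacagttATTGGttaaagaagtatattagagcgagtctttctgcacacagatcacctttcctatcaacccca
In all, 7 letter strings were searched on both strands. Of these, 5 were searched first, and 2 were rewritten after the Alb and Srxn1 promoters had been read, so that they would match there; the counts of those 2 are not independent of these promoters. One of those 2 and its earlier form are not reported here. CCAAT is in 37.4% of the 32851 promoters searched and in 8 of 20 plasma protein genes with a promoter in the table, and TATAAA is in 13.6% of promoters and in 5 of the 20. A match is a run of letters and says nothing about binding.

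The liver-enriched transcription factors were present too. Of 20 listed, 15 were called higher in pHeps, 2 lower and 3 neither, with a median log2 fold change of 5.84. Hnf4a was at 379 and 371 CPM in pHeps with no count in any MEF library, at least 4352-fold higher. Nr1i2, the pregnane X receptor that senses drugs, was at 52.98 and 59.4 CPM and at least 653-fold higher. Both sat far above the MEF libraries. Nr1i3, the drug-sensing receptor CAR, was called higher but reached only 0.878 and 1.89 CPM. With no count in MEF it was at least 16.2-fold higher, or at least 10.2-fold without pHeps 2. Cebpa, a factor of hepatocytes and of fat cells, did not pass the test, at 50.6 and 55.2 CPM in pHeps and 53.6, 55.9 and 48.4 in MEF (log2 fold change 0.01 ± 0.29 SE). Cebpb, which carries inflammatory signals in liver, was at 80.4 and 92.7 against 107, 99.3 and 95.5 CPM and also did not pass (-0.22 ± 0.17 SE). The third, Zhx2, a repressor of fetal liver genes, was at 12 and 16.6 against 21.03, 18.8 and 22.5 CPM. Rxra, the shared partner of many nuclear receptors, was lower, at 64.4 and 51.05 against 148, 150.2 and 153 CPM (-1.38 ± 0.11 SE). Esrrg, an orphan nuclear receptor, had no count in pHeps and 0.621, 1.03 and 0.757 CPM in MEF.

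Of 24 genes of epithelial junctions, keratins and adhesion, 21 were called higher in pHeps and none lower, with a median log2 fold change of 5.06, or 4.25 with bounds. Krt8 and Krt18, the keratin pair of hepatocytes, were at 3059.8 and 3039 and at 3099 and 3023 CPM in pHeps 1 and 2. In MEF, Krt8 was at 0.0887, 0.257 and 0.673 CPM and Krt18 at 0.976, 1.46 and 2.35 CPM, with no overlap for either gene. The log2 fold change of Krt8 was 13.07 ± 0.69 SE, and 14.00 without MEF 3, which held most of the MEF counts. That of Krt18 was 10.89 ± 0.48 SE (adjusted p = 1e-11). Cdh1, or E-cadherin, was at 118 and 139.7 against 1.06, 0.343 and 0.757 CPM (7.46 ± 0.52 SE). Gjb1, the gap junction protein connexin 32 of hepatocytes, was at 51.2 and 51.8 CPM with no count in MEF, at least 598-fold higher. Ceacam1, an adhesion molecule of bile canaliculi, was called higher at 6.24 and 11.2 against 1.86, 2.06 and 1.77 CPM, but its adjusted p was 0.09 without pHeps 2. Cdh2, or N-cadherin, which hepatocytes also carry, was at 58.3 and 60.95 CPM in pHeps and 95.6, 110.4 and 101 in MEF and did not pass the test (adjusted p = 0.0905). Esrp1 and Grhl2, regulators of epithelial splicing and transcription, did not pass either and held 7 and 8 counts in both pHeps libraries together.

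**Figure D1:**
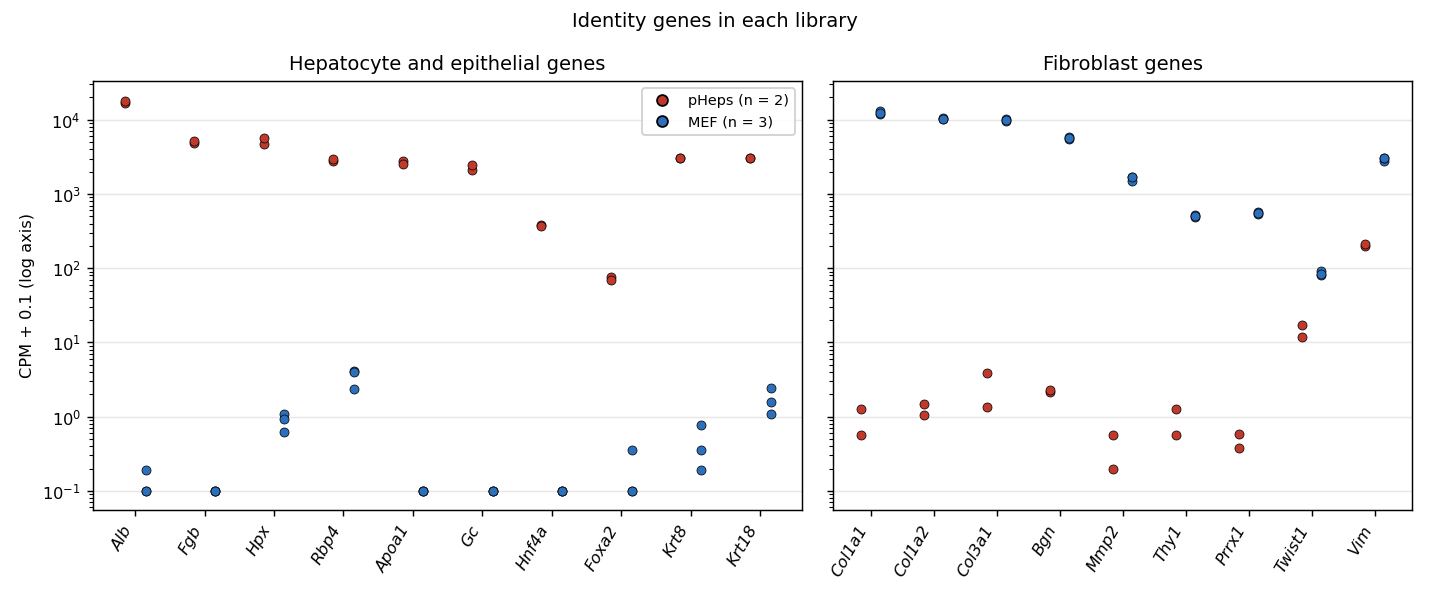
Expression of identity genes in each library, as CPM plus 0.1 on a log axis; red points are the 2 pHeps libraries and blue points the 3 MEF libraries. The hepatocyte and epithelial genes on the left and the fibroblast genes on the right do not overlap between the groups, with Twist1 and Vim the closest on the right.

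Fibroblast genes showed the reverse. All 25 genes of matrix and fibroblast identity were called lower in pHeps, with a median log2 fold change of -10.09. Col1a1, a chain of type I collagen, was at 1.17 and 0.472 CPM in pHeps and 12137, 13093 and 12252 in MEF, with -13.88 ± 1.45 SE, and -14.67 without pHeps 1. Thy1, a surface marker of fibroblasts, was at 1.17 and 0.472 against 488, 525 and 499 CPM (-9.25 ± 0.86 SE, and -10.04 without pHeps 1). Col1a2, Mmp2, Col3a1, Ltbp2 and Col5a2 made up, with Col1a1, the 6 largest falls among genes with at least 4 counts in pHeps. Col1a2 was at 1.37 and 0.944 against 10377, 10440 and 10244 CPM, and Col5a2, a chain of type V collagen, at 0.976 and 1.32 against 3079.9, 3369 and 3323. Mmp2, a matrix-degrading protease, was at 0.0976 and 0.472 against 1708, 1514 and 1669.7 CPM, with a log2 fold change of -12.41 ± 0.78 SE that ran from -13.89 to -11.73 when either pHeps library was left out. Col3a1 was at 1.27 and 3.77 against 10218, 9707 and 9975 CPM (-11.94 ± 1.58 SE, and -12.94 without pHeps 2). Ltbp2, a binder of latent TGF-beta, was at 0.0976 and 0.377 against 729, 768 and 778 CPM (-11.56 ± 0.90 SE, from -12.78 to -10.94 without either pHeps library). The most abundant matrix gene in pHeps was Fn1, which hepatocytes also secrete as plasma fibronectin, at 794 and 829.8 CPM against 11946, 13447 and 11815 (-3.93 ± 0.58 SE). Listed matrix genes other than Fn1 and Fbln2 stayed at or under 10.9 CPM in both pHeps libraries.

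All 20 mesenchymal transcription factors were called lower, with a median of -6.73, or -5.98 with bounds. The call of Msx2, at a log2 fold change of -1.75, was lost without pHeps 2, where it was -1.43. Prrx1, a factor of embryonic mesenchyme, was at 0.488 and 0.283 CPM in pHeps and 539, 565 and 549.6 in MEF (-10.45 ± 0.84 SE). Tbx15, Tbx18, Osr1, Osr2, Foxc2 and Tcf21 had no count in pHeps. Twist1, a driver of epithelial-mesenchymal transition, was at 16.98 and 11.6 CPM against 80.2, 90.9 and 82.8 (-2.57 ± 0.33 SE). Zeb1 was at 15.7 and 15.1 and Zeb2 at 12.3 and 18.9 CPM in pHeps, and with Twist1 these were the listed factors above 10 CPM there. Macrophages also express Zeb2, and macrophage markers summed to 1457 and 1178 CPM in pHeps; their part in these levels was not tested.

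**Figure D2:**
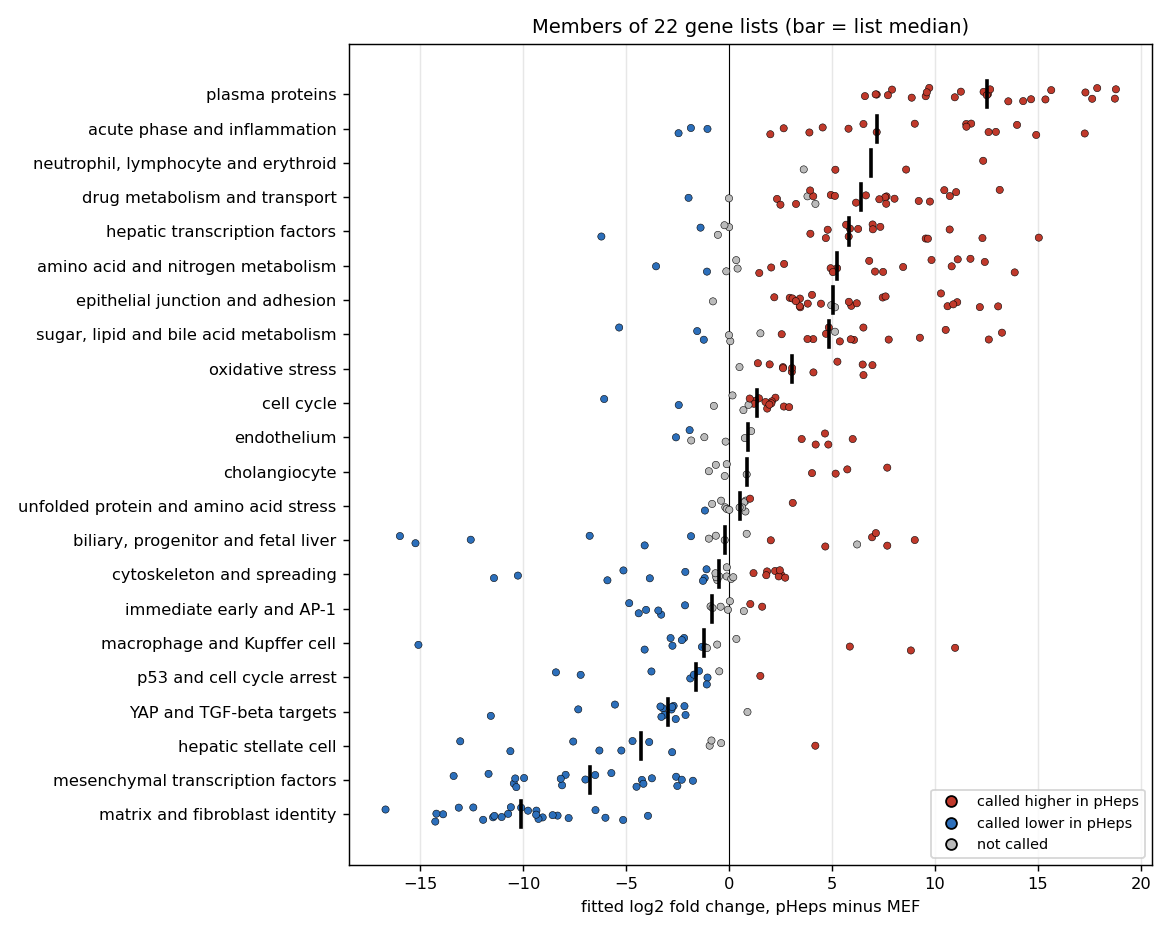
Fitted log2 fold changes (pHeps minus MEF) of the tested members of 22 gene lists, 1 point per gene, with a black bar at each list's median; red and blue points were called and grey points were not. Plasma proteins lie to the far right with a median of 12.52 and matrix genes to the far left with a median of -10.09, while lists such as cytoskeleton hold members on both sides; points of genes without counts in one group depend on the prior count.

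Genes of intermediary metabolism stood at uneven levels. Of 21 genes of amino acid and nitrogen metabolism, 16 were called higher in pHeps and 2 lower, with a median of 5.25. Cps1, the entry enzyme of the urea cycle, was at 196 and 154 CPM against 0, 0 and 0.252 in MEF. The ratio was 2026 (exact 95% interval 693 to 9828), and at least 1334-fold without MEF 3, which held all 3 counts. Tat and Hgd, of tyrosine breakdown, were at 60.2 and 61.5 and at 35.5 and 39.5 CPM, with no count in MEF. Levels differed within a pathway. By TPM, Cps1 was at 76.8 and 59.9 in pHeps, Otc, the next enzyme of the urea cycle, at 4.96 and 5.41 and Arg1, its last, at 181 and 203. In tyrosine breakdown, Hpd was at 2.59 and 1.44 TPM and Hgd, which acts after it, at 29.5 and 32.8 TPM. Sds, serine dehydratase, was called higher at 2.15 and 1.98 against 0.710, 0.428 and 0.336 CPM, but its adjusted p lay between 0.0785 and 0.1 when MEF 2, MEF 3 or either pHeps library was left out. Oat, ornithine aminotransferase, was lower at 28.5 and 24.9 against 305, 315 and 313 CPM (-3.54 ± 0.19 SE). Glul, the glutamine synthetase of hepatocytes around the central vein, was also lower, at 49.4 and 48.02 against 107, 105 and 94.9 CPM (-1.07 ± 0.29 SE). Ass1 of the urea cycle was at 146 and 150.0 against 98.8, 102 and 132 CPM and did not pass the test, nor did Got1, an aspartate aminotransferase, at 64.6 and 73.3 against 51.5, 56.97 and 53.7 CPM.

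Of 21 tested genes of sugar, lipid and bile acid metabolism, 14 were called higher and 3 lower, with a median of 4.85, or 4.40 with bounds. Pklr, the pyruvate kinase of liver, was at 58.1 and 81.2 CPM with no count in MEF, at least 811-fold higher, and Baat, which joins bile acids to amino acids, at 16.9 and 15.8 CPM and at least 189-fold. Of the genes of glucose synthesis and release in the list, Fbp1, fructose-1,6-bisphosphatase, was called higher at 32.98 and 37.6 against 1.24, 0.514 and 0.757 CPM (5.38 ± 0.77 SE), and so was Pck1, phosphoenolpyruvate carboxykinase, at 5.37 and 9.72 against 0.532, 0.771 and 0 CPM (4.09 ± 0.98 SE, 4.78 without MEF 2 and 3.51 without MEF 3). G6pc, the glucose-6-phosphatase that completes glucose output, held 8 counts over both libraries (0.0976 and 0.660 CPM) and was not called. Slc2a2, the glucose transporter GLUT2 of hepatocytes, was at 1.17 and 3.59 CPM, and its call was lost without pHeps 2 (adjusted p = 0.0887). In the C6F5UE-C6F(L)V libraries G6pc stood at 36.4, 20.1 and 33.9 CPM and Slc2a2 at 137, 91.7 and 124 CPM. Cyp7a1, the rate-limiting enzyme of classical bile acid synthesis, had no count in the pHeps or the MEF, and neither had Cyp8b1 of the same pathway, whereas Cyp27a1 of the alternative pathway was at 125 and 134 against 4.52, 5.31 and 3.62 CPM (4.85 ± 0.65 SE). Cyp7b1, also of the alternative pathway, was lower in pHeps at 0.976 and 0.849 against 36.3, 36.9 and 38.3 CPM (-5.33 ± 0.68 SE). Acly and Fasn, of fatty acid synthesis, were lower as well, at 141 and 148 against 342, 326 and 342 and at 134 and 125 against 372, 387 and 376 CPM. Cpt1a, the gate of mitochondrial fatty acid oxidation, did not pass the test at 122 and 145 against 124, 129 and 129.6 CPM.

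Among 24 genes of drug metabolism and transport, 20 were called higher and 1 lower, with a median of 6.41, or 4.81 with bounds. The call hides a wide range of levels. Gstm1 and Gstp1, glutathione S-transferases with close copies whose counts are uncertain, were at 1443 and 1497 and at 1365 and 1508 CPM. Abcc2, which exports conjugates into bile, was at 335 and 387 CPM against 1 count in all MEF, a ratio of 12586 (exact 95% interval 2258 to 497170), and at least 2838-fold without MEF 1. Cyp3a11, the major drug-oxidising member of its family, was at 19.03 and 18.5 CPM with none in MEF, at least 218-fold higher, against 529, 346 and 584 CPM in the C6F5UE-C6F(L)V libraries. Cyp2d10 was at 24.6 and 21.8 CPM, and like Cyp3a11 it has near-identical copies, so its count is uncertain. The same holds for the other named members of the Cyp2c, Cyp3a and Cyp4a families, here and below. Cyp1a2, which oxidises caffeine, reached 2.93 and 1.51 CPM, from 46 counts. Cyp2e1, the alcohol-oxidising enzyme, held 3 counts in both pHeps libraries together and none in MEF, and Cyp4a14, a fatty acid hydroxylase, held 4; neither was called. Cyp2c29 had no count in pHeps, and was at 85.6, 55.7 and 67.9 CPM in the C6F5UE-C6F(L)V libraries. Cyp2f2 was lower at 8.29 and 12.9 against 45.96, 33.8 and 44.4 CPM (-1.96 ± 0.74 SE), a call that was lost without MEF 1 or without either pHeps library (adjusted p from 0.0506 to 0.157). Calls were also lost for Cyp2b10 without pHeps 1 (adjusted p = 0.0607), for the bile acid importer Slc10a1 without pHeps 2 (0.0713), and for the bilirubin-conjugating Ugt1a1 without either pHeps library (0.0517 and 0.057). These 3 stood at 2.83 and 1.42, 1.37 and 2.64 and 1.07 and 1.13 CPM.

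Over all 76 P450 genes of families 1 to 4, a set taken after values had been seen and described without a test, 22 had no count in pHeps and 17 exceeded 10 CPM in the mean. Their summed level was 706 and 809.7 CPM in pHeps and 690.4 to 747 CPM in MEF. In MEF, Cyp1b1, a P450 of mesenchymal cells, made up 496 to 560.1 CPM of the sum, against 3.22 and 1.42 in pHeps. The most abundant P450 genes in pHeps were Cyp2a5 at 118 and 179 CPM and Cyp3a13 at 109 and 140.0 CPM. Cyp2a5 also had the larger spread between the pHeps libraries. Cyp2a4, a close copy of Cyp2a5, was at 2.44 and 1.32 CPM in pHeps 1 and 2, and the split of counts between them is uncertain. All 14 glutathione S-transferase genes of the alpha, mu and pi classes exceeded 10 CPM in pHeps, and their sum was 4914 and 5235 CPM.

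**Figure D3:**
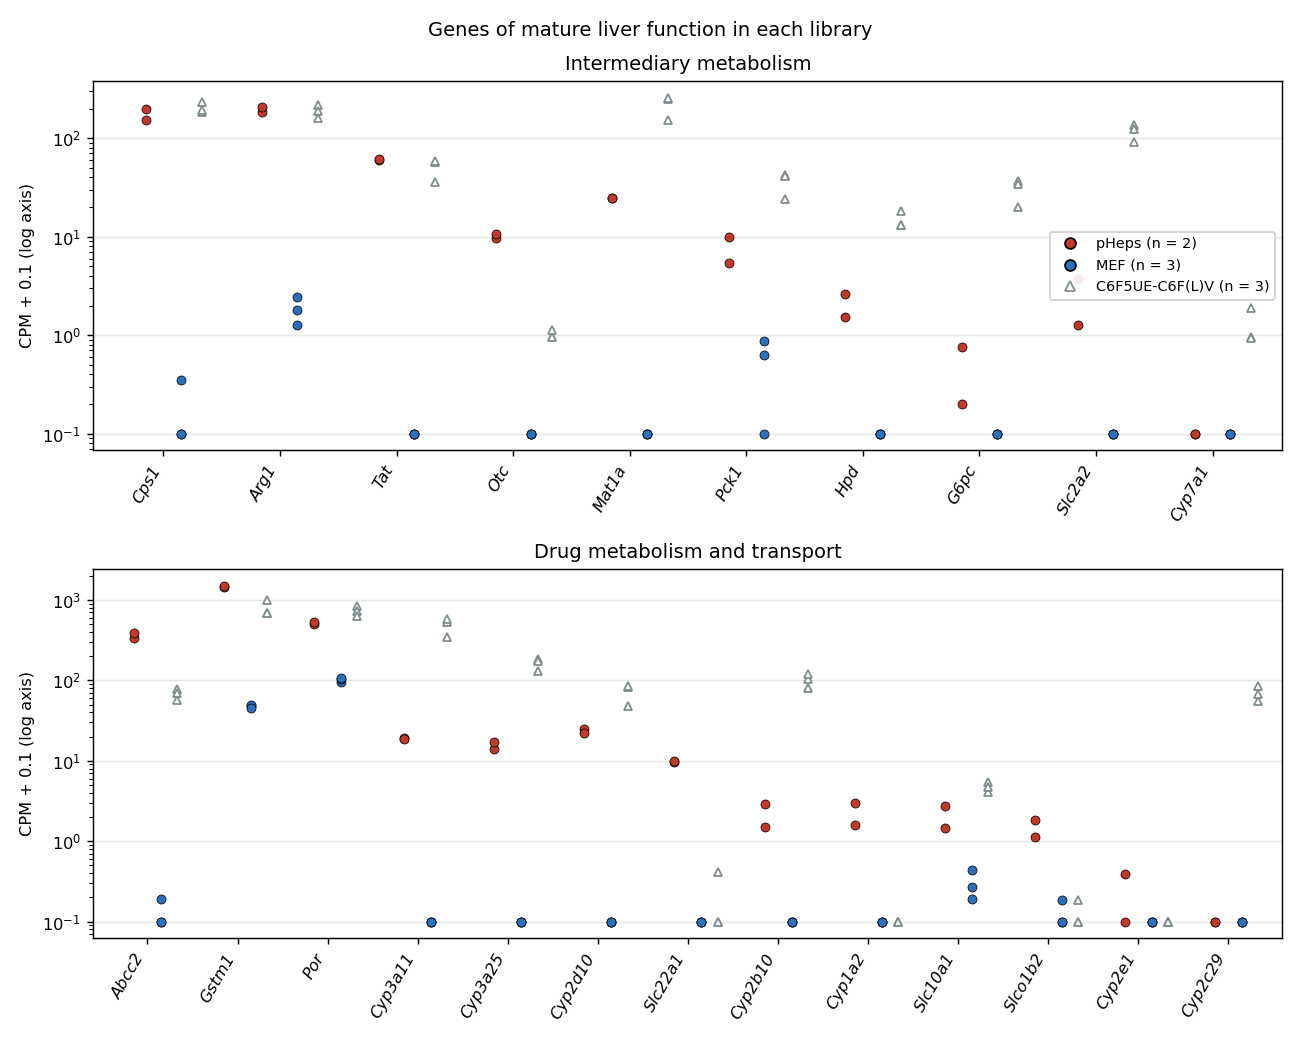
Levels of liver function genes in each library, as CPM plus 0.1 on a log axis; red points are pHeps, blue points MEF and open triangles the C6F5UE-C6F(L)V libraries from the same table as the pHeps. Abcc2 and Gstm1 lie above 300 CPM in both pHeps libraries, whereas Cyp2e1, Cyp2c29 and Cyp7a1 lie at or near the bottom of the axis.

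Genes of bile duct cells, progenitors and fetal liver gave no uniform picture: 6 of 17 tested were called higher in pHeps, 6 lower and 5 neither, with a median of -0.21. Afp, the fetal counterpart of albumin, was at 66.5 and 64.3 CPM against 0.0887, 0.257 and 0 (9.02 ± 1.17 SE). Without MEF 2, 1 MEF count of Afp was left, and the ratio was 1515 (exact 95% interval 272 to 59899). Cd24a, a surface protein of progenitors, was at 155 and 174 against 7.36, 6.85 and 5.05 CPM. The keratins that mark bile ducts were low: Krt19 was at 12.7 and 12.3 CPM in pHeps and 7.10, 7.97 and 5.55 in MEF, and Krt7 at 5.66 and 7.93 and 7.99, 14.1 and 18. Neither was called, and in the C6F5UE-C6F(L)V libraries they stood at 1496, 1685 and 1065 and at 2158, 2220.4 and 1833 CPM. Sox9, a factor of bile duct cells and of reprogrammed hepatocytes, did not pass the test at 9.56 and 11.4 against 15.97, 16.6 and 16.4 CPM. Spp1, or osteopontin, had the highest mean TPM of the list in both groups and did not pass, at 2171 and 2829.9 against 2938, 2603 and 3116 CPM. The imprinted fetal growth genes were nearly absent from pHeps: Dlk1 and Igf2 had no count there, and H19 had 1, against 3960.5, 3700.4 and 3762 CPM in MEF. The 10 cholangiocyte markers, of which 5 are also in the list above, gave 4 called higher, 0 lower and 5 not called, with a median of 0.86.

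Among 25 cytoskeletal and cell spreading genes, 8 were called higher in pHeps and 9 lower. The median was -0.48. Vim, the intermediate filament protein of fibroblasts, was at 201 and 214 CPM in pHeps against 2793, 3037 and 3097 in MEF (-3.84 ± 0.56 SE). Vim was thus lower than in fibroblasts but well above the levels of most fibroblast genes. Acta2, smooth muscle actin, was at 0.293 and 0.660 against 1176, 1460.4 and 1366 CPM (-11.41 ± 0.91 SE). Without pHeps 2, 3 pHeps counts of Acta2 were left, and MEF was higher by a ratio of 4566 (exact 95% interval 1562 to 22141). The genes called higher were Tagln2, Tuba1c, Tubb6, Tmsb10, S100a10, S100a11, Anxa3 and Plaur. Anxa3, an annexin, was at 1629 and 1682 against 228, 263 and 257 CPM (2.73 ± 0.22 SE), and Tmsb10, an actin-binding thymosin, at 1761 and 1959.8 against 380.4, 395 and 406 CPM (2.24 ± 0.20 SE). Cd44, the hyaluronan receptor, did not pass the test at 202 and 226 against 174, 185 and 197 CPM (0.21 ± 0.31 SE), so a level near that of fibroblasts was measured without showing that the 2 are equal. Anxa2 was similar, at 895 and 875 against 783, 865 and 813 CPM. Actb was called lower, but its log2 fold change of -1.18 became -0.98 without pHeps 2.

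The YAP and TGF-beta list holds targets, which respond to stretch and to that cytokine. It also holds the ligand genes Tgfb1, Tgfb2 and Inhba, so it is not a list of targets alone. In pHeps 13 of its 14 genes were lower, with a median of -2.96. Ctgf was at 191 and 204 CPM against 761, 983 and 909.6 (-2.16 ± 0.55 SE) and Cyr61 at 175 and 174 against 1050.5, 1184 and 1142 (-2.69 ± 0.33 SE). Thbs1, thrombospondin, was at 51.6 and 52.4 against 7803, 8558 and 8543 CPM (-7.32 ± 0.70 SE). Ankrd1, a YAP target, was the gene not called, at 53.8 and 67.8 against 29.8, 36.1 and 32.04 CPM. Of 14 immediate early genes, 2 were called higher and 6 lower, with a median of -0.85. The factor genes Fos and Egr1 were lower, Fos at 10.1 and 10.6 against 173, 166 and 167 CPM. Fosl1 was higher, at 30.5 and 33.1 against 9.58, 10.96 and 10.7 CPM (1.61 ± 0.41 SE). Myc was called higher at 93.4 and 103 against 43.7, 48.5 and 51.5 CPM, with a log2 fold change of 1.04 that was 0.95 without MEF 1 or without pHeps 2.

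Acute phase and inflammatory genes were among the most abundant transcripts of the pHeps. Of 19 listed, 16 were called higher and 3 lower, with a median of 7.17. They took 32062 and 34961 CPM in sum in pHeps 1 and 2, against 434 to 566 CPM in MEF and 2736 to 3005 CPM in the C6F5UE-C6F(L)V libraries. Lcn2, the iron-scavenging lipocalin of the acute phase, was at 13040 and 15109 CPM in pHeps and 0.177, 0.257 and 2.10 in MEF. It had a log2 fold change of 13.99 ± 0.78 SE (adjusted p = 1.1e-10), and 15.90 without MEF 3, which held most of the MEF counts. Hamp, the precursor of the iron hormone hepcidin, had the highest TPM of all genes, at 35720 and 31172 TPM and 6732 and 5892 CPM. The MEF held 1 Hamp count, a ratio of 219630 (exact 95% interval 39418 to 8674900), and without MEF 1 it was at least 49522-fold. Orm1, an alpha-1-acid glycoprotein, was at 1354 and 1562 against 0, 0.171 and 0.336 CPM (12.96 ± 0.68 SE). Without MEF 3, 2 MEF counts of Orm1 were left, and the ratio was 16747 (exact 95% interval 4636 to 138290). Hp, which binds free haemoglobin, was at 3507 and 4198 against 14.2, 35.5 and 30.4 CPM (7.17 ± 0.57 SE). Cxcl1 and Ccl2, attractants of neutrophils and monocytes, were at 828 and 889 and at 875 and 966 CPM, against 12.6, 11.6 and 21.9 and 131, 117 and 189 CPM in MEF. Saa1 and Saa2, serum amyloid genes with near-identical sequence, were at 343 and 343 and at 69.1 and 69.2 CPM with no count in MEF, and their split is uncertain. Il1rn, an interleukin-1 antagonist, was lower at 18.1 and 16.8 against 87.3, 112 and 86.4 CPM. Il6 and Socs3 were called lower too, but the call of Il6 was lost without pHeps 1 (adjusted p = 0.0938) and that of Socs3 without any of MEF 2, MEF 3, pHeps 1 and pHeps 2 (0.0582 to 0.181).

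Oxidative stress genes were mostly higher as well. Of 12, 11 were called higher in pHeps, with a median of 3.06, and Hmox1, haem oxygenase, was not called at 287 and 222 against 185, 180.5 and 171 CPM. Mt1, a metal-binding metallothionein induced by zinc and by glucocorticoids, was at 11325 and 9866 CPM against 108, 117 and 118 (6.53 ± 0.42 SE) and had the second highest TPM of pHeps. Gclc, the catalytic subunit of the first step in glutathione synthesis, was at 2949 and 3562 CPM against 25.9, 28.01 and 24.1, with a log2 fold change of 6.97 ± 0.19 SE (adjusted p = 6.8e-14). Osgin1, an oxidative stress-induced growth inhibitor, was at 823 and 789 against 10.8, 8.48 and 7.57 CPM (6.49 ± 0.51 SE). Srxn1, sulfiredoxin, an NRF2 target that repairs peroxiredoxins, was at 546 and 629 against 67.2, 74.4 and 71.1 CPM (3.05 ± 0.14 SE). Gclc was also high in the C6F5UE-C6F(L)V libraries, at 2716, 2764 and 2798 CPM, while Srxn1 was not, at 68.1, 62.1 and 60.2 CPM.

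The promoters of Mt1 and Srxn1 are shown for the 2 stress inducers with which these genes are best known, metals and oxidants. The RefSeq sequences are on the plus strand of GRCm38.p6, at chr8:94178839-94179138 and chr2:152105274-152105573. In Mt1 capitals mark TGCNCNC, the letters of a metal response element, and in Srxn1 they mark the first antioxidant string, TGACNNNGC, and the rewritten one, TGANTCAGC, which match at 1 place each.
Mt1: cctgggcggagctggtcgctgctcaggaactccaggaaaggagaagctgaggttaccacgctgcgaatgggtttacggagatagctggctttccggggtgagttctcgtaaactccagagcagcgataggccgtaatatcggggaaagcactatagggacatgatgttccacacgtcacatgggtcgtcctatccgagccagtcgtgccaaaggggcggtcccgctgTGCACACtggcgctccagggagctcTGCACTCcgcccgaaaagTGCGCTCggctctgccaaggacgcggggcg
Srxn1: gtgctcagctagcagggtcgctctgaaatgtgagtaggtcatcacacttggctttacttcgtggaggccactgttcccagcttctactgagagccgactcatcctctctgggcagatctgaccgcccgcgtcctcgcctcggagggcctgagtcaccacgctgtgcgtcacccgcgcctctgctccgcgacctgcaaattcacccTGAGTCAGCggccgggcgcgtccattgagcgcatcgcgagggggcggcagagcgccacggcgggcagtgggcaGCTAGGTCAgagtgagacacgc
TGCNCNC occurs 3 times in the Mt1 promoter and also 3 times in the Srxn1 promoter, where it is not marked. It is in 51.0% of all promoters searched, 3 or more times in 7.10%, and in 6 of the 9 oxidative stress genes in the table. TGACNNNGC is in 12.4% of promoters and in 5 of these 9 genes. TGANTCAGC, the string chosen after reading Srxn1, is in 1.19% of promoters and in 4 of the 9 genes, and that count supports nothing on its own.

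The unfolded protein and amino acid stress genes mostly did not pass the test. Of 13 tested, 2 were called higher, 1 lower and 10 neither, with a median of 0.52. Gdf15, a stress-induced cytokine, was higher at 80.1 and 103 against 9.94, 11.7 and 10.4 CPM (3.10 ± 0.54 SE). Psat1 of serine synthesis was called at a log2 fold change of 1.02, which was 0.97 without MEF 1 and 0.99 without pHeps 2. Dnajb9, a chaperone helper of the endoplasmic reticulum, was lower at 21.7 and 22.6 against 51.99, 46.2 and 50.9 CPM. Hspa5, the chaperone BiP, was at 1000.4 and 1084 against 1164, 1228 and 1147 CPM and Atf4, the factor of amino acid stress, at 514 and 554 against 302, 305 and 302 CPM, neither called.

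Genes of the cell cycle were higher in the pHeps for 12 of 18 members and lower for 2, with a median of 1.36. Cdk1, the kinase of mitotic entry, was at 295 and 284 CPM against 46.4, 46.9 and 43.6 in MEF (2.67 ± 0.18 SE). Birc5, or survivin, which acts in chromosome segregation, was at 142 and 139 against 16.9, 17.5 and 21.2 CPM (2.92 ± 0.18 SE), and the mitotic cyclin Ccnb1 at 159.9 and 159.7 against 33.4, 32.2 and 34.8 CPM (2.26 ± 0.17 SE). Of the 18 members, 4 were not called, Mki67 and Top2a among them. Mki67, the proliferation antigen Ki-67, was at 60.9 and 58.03 against 108, 92.8 and 95.9 CPM (-0.73 ± 0.18 SE). It was lower in the quasi-likelihood test (adjusted p = 0.00155) but short of the fold threshold. Top2a, a topoisomerase of dividing cells, was at 113 and 123 against 106, 101 and 107 CPM. Foxm1, a mitotic transcription factor, was called at a log2 fold change of 1.01, which was 0.92 without MEF 2 and 0.98 without pHeps 1. The D-type cyclins of the list were lower, Ccnd1 at 81.6 and 79.2 against 415, 428 and 464 CPM (-2.44 ± 0.37 SE) and Ccnd2 at 13.2 and 13.1 against 856, 924 and 853 CPM (-6.06 ± 0.34 SE). In the C6F5UE-C6F(L)V libraries Cdk1 was at 50.4, 39.6 and 63.1 CPM and Mki67 at 4.51, 5.77 and 7.22 CPM.

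Genes of p53 and cell cycle arrest were lower for 8 of 10 and higher for 1, with a median of -1.58. Cdkn1a, the inhibitor p21, was at 170.2 and 172 CPM against 338, 373 and 347 (-1.04 ± 0.22 SE). Cdkn2a, the senescence locus of p16 and p19ARF, was at 0.195 and 0.377 against 97.9, 108 and 96.8 CPM (-8.40 ± 0.43 SE), and Cdkn1c, the imprinted inhibitor p57, at 0.390 and 0.849 against 102, 84.3 and 93.7 CPM (-7.20 ± 0.66 SE, and -7.88 without pHeps 2). Bax, a mediator of apoptosis, was the gene called higher, at 270.2 and 298 against 93.9, 106 and 96.5 CPM. Mdm2 was not called at 122 and 127 against 163, 167 and 189.6 CPM.

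**Figure D4:**
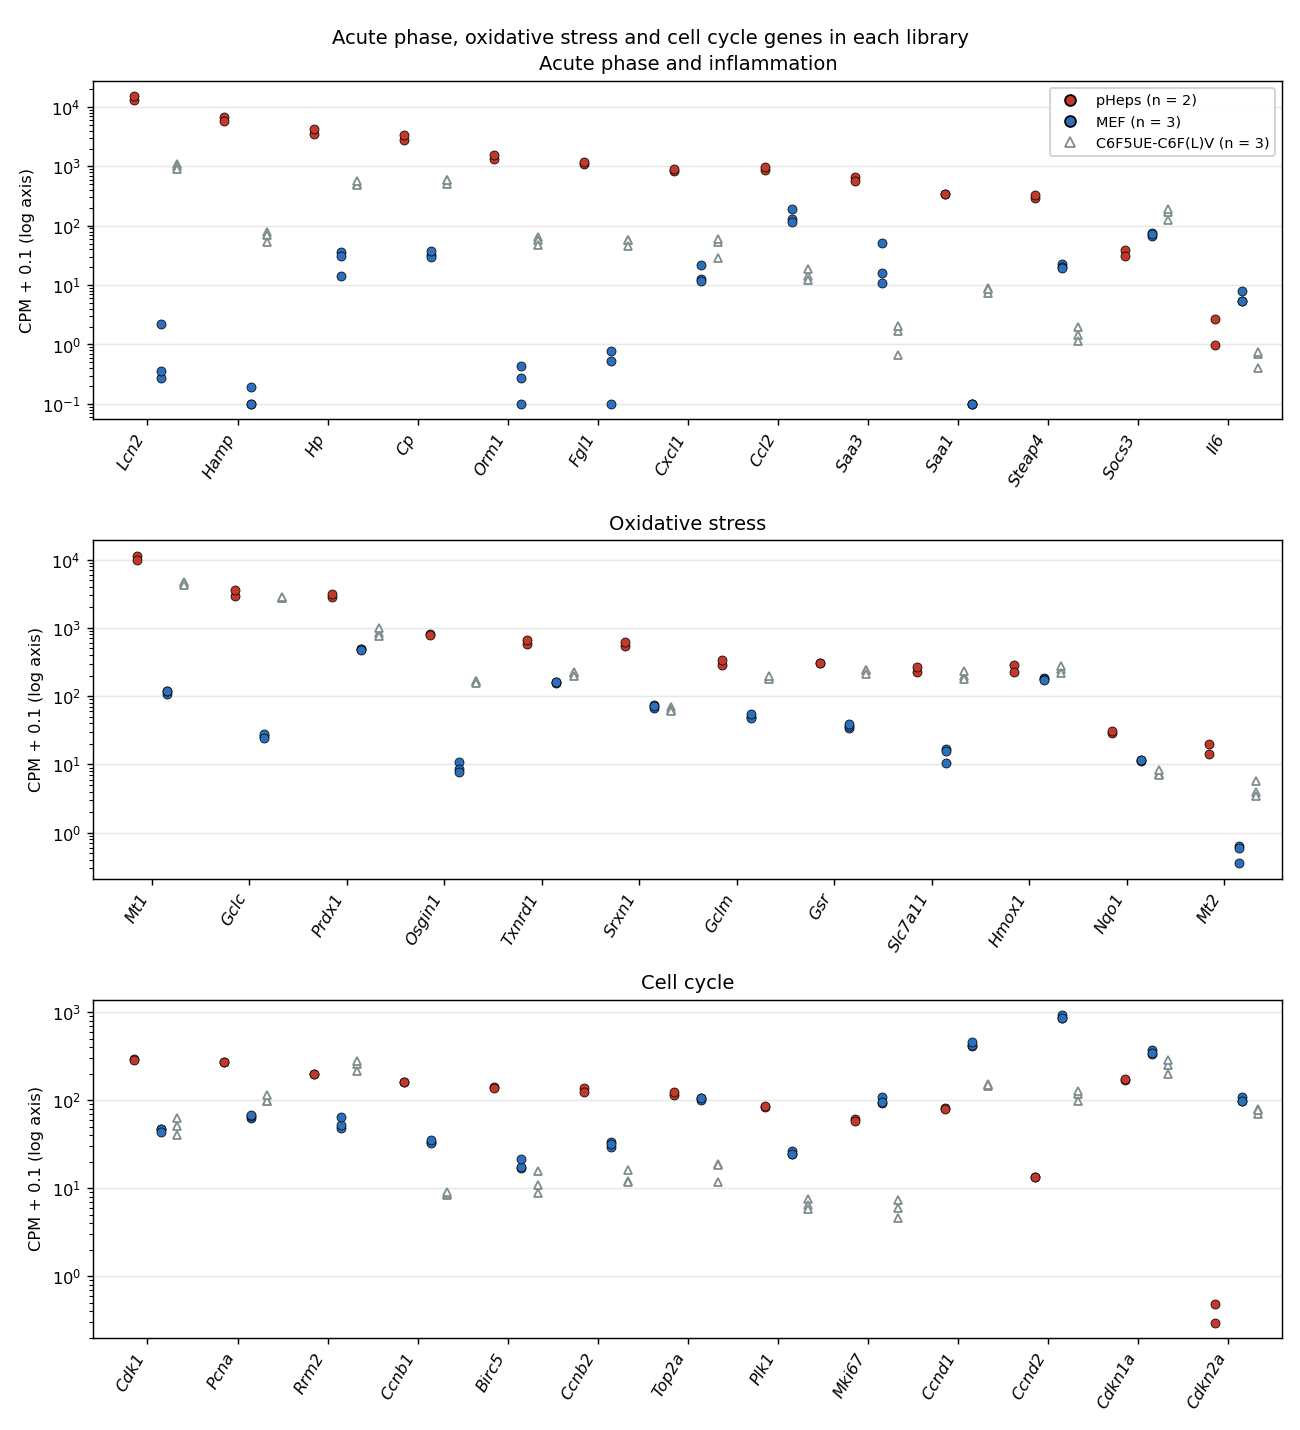
Acute phase, oxidative stress and cell cycle genes in each library, as CPM plus 0.1 on a log axis; red points are pHeps, blue points MEF and open triangles C6F5UE-C6F(L)V. In the top panel Lcn2 and Hamp lie highest in both pHeps libraries. In the bottom panel Top2a lies near its MEF level, Mki67 lies somewhat lower than in MEF and Ccnd2 far lower.

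The libraries were also read for other cell types, since fewer cells of a type and less RNA per cell cannot be told apart in bulk samples. Of 14 tested macrophage and Kupffer cell markers, 3 were called higher in pHeps and 8 lower, with a median of -1.23. Their summed level was 1457 and 1178 CPM in pHeps, 4650 to 5859 CPM in MEF and 19.5 to 22.7 CPM in C6F5UE-C6F(L)V. Lyz2, a lysozyme of myeloid cells, was at 458 and 367 CPM in pHeps and 3135, 2613 and 2542 in MEF, and Fcrls had no count in pHeps against 419, 407 and 327 CPM in MEF. The 3 called higher were Clec4f and Vsig4, both markers of Kupffer cells, at 24.7 and 20.1 and at 11.9 and 24.3 CPM, and Marco, a scavenger receptor, at 75.4 and 59.4 CPM. MEF had no count of Clec4f. Cd5l and Timd4, further Kupffer cell markers of the list, were not among the genes called higher. By mean TPM, Cd5l ranked 7852 among all genes in pHeps and 6825 in MEF, and Timd4 13887 and 15847. Both groups thus hold RNA with macrophage markers, and its part in the acute phase and inflammatory values above was not tested.

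Among 12 tested endothelial markers, 5 were called higher and 2 lower, with a median of 0.92 and a sum of 122 and 103.4 CPM in pHeps against 32.2 to 37.8 CPM in MEF. Stab2, of liver sinusoids, was at 28.98 and 18.02 against 0.621, 1.54 and 0.589 CPM. The lower calls were Tek and Erg; both calls were lost when single libraries were left out, with adjusted p up to 0.222 for Tek and 0.168 for Erg. Of 12 stellate cell markers, 1 was called higher and 8 lower, with a median of -4.28, or -3.32 with bounds, and Des and Ngfr had no count in pHeps. The gene called higher, Lrat, held 15 counts, and its adjusted p was 0.158 without pHeps 2. Of 4 tested neutrophil, lymphocyte and erythroid markers, of 14 listed, 3 were called higher. S100a8 and S100a9, the calprotectin genes of neutrophils, were at 93.8 and 48.4 and at 71.1 and 44.1 CPM in pHeps. Ly6g, another neutrophil marker, held 8 counts in pHeps 1 and none in pHeps 2 or MEF. Cd3e and Cd3d, which mark T cells, had no count in either group.

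**Figure D5:**
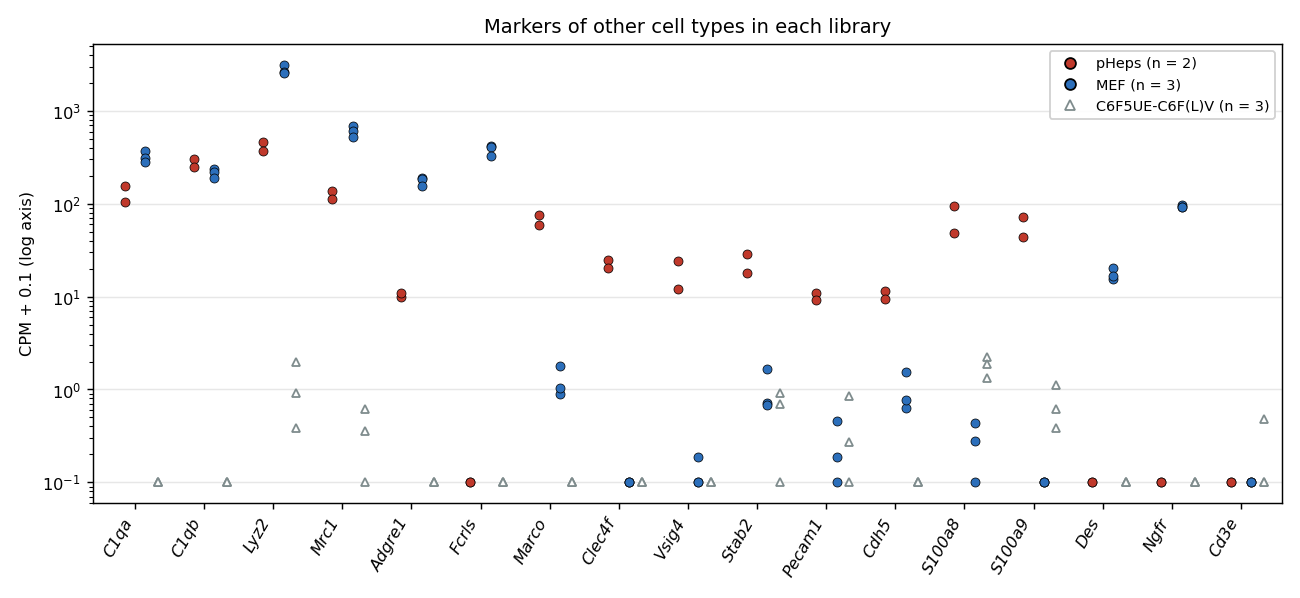
Markers of other cell types in each library, as CPM plus 0.1 on a log axis; red points are pHeps, blue points MEF and open triangles C6F5UE-C6F(L)V. Macrophage genes such as C1qa and Lyz2 are present in pHeps and higher in MEF, Clec4f and Stab2 are higher in pHeps, and Cd3e is at the bottom of the axis in both groups.

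The 6 largest rises among genes with at least 4 MEF counts were Lcn2, Krt8, Orm1, Hpx, Ambp and Sprr1a. Sprr1a, a cornified envelope protein of keratinocytes, was at 5619 and 5217 CPM in pHeps and 1.24, 1.54 and 0.673 CPM in MEF, and at 208.9, 195.9 and 233.7 CPM in C6F5UE-C6F(L)V. Its log2 fold change was 12.19 ± 0.95 (SE; adjusted p = 4.8e-09). By TPM the 6 most abundant genes of pHeps were Hamp, Mt1, Rplp1, Alb, Sprr1a and Lcn2. Rplp1, a ribosomal protein gene, was at 18392 and 18385 TPM in pHeps and 6970 to 7155 TPM in MEF. Alb was at 15472 and 16832 TPM, below Hamp, Mt1 and Rplp1.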

How the data were processed

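RNA of 21 libraries was sequenced after poly-A selection, per the labels' protocols. The authors' deposited tables hold raw counts per gene; alignment used HISAT2 with GRCm38 (mm10), per the submitters' processing notes, and the sources used here do not give the counting tool, strand setting or annotation, so antisense and near-identical genes are uncertain. The count tables were joined by gene ID over 54532 genes. Of the authors' deposited FPKM tables, only the 3 MEF columns were used, to check the count columns; they matched the counts of MEF 2, 3 and 1 in that order, which changes no group. The deposited FPKM table of the pHeps was identical to its count table and was not used.

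Counts of all 21 libraries were fitted together with edgeR 4.0.16 in R 4.3.3 (TMM scaling, filterByExpr with minimum count 10 and minimum total 15, quasi-likelihood F test), with 1 coefficient per group, and pHeps were contrasted with MEF. The standard error is the size of the log2 fold change divided by the square root of F. TPM was computed from counts and deposited gene lengths over genes of at least 200 bases. DESeq2 1.42.0 was an alternative. The test was also tried on simulated data with 1 spread and 1 size of change for all changed genes, unlike these data. The pass mark for recovered genes was lowered after a first run fell short of it, so nothing here rests on that trial. Replicates differed by more than sampling noise (chi-square per degree of freedom 3.42 to 7.28), so each library counts once. Reads carry no molecular identifiers.

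The members and the 22 gene lists were chosen with earlier results of these data known. Named genes are 23 marker genes, the 6 largest rises and falls (at least 10 CPM in the higher and 4 counts in the lower group, no overlap, no predicted genes), the 6 highest TPM, and per list the 3 largest called, up to 3 called against the majority and up to 2 abundant ones not called; further genes were named after their values were seen, and so were the P450 and glutathione S-transferase sets. Of the 7 promoter strings, 2 were rewritten after promoters had been read. Some genes and strings that these rules name are not reported here. Promoters came from RefSeq (GRCm38.p6), and those on chromosome 18 were left out.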

Additional observations from a re-analysis of the deposited data

How the results depend on the processing

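Across the alternatives run with the same thresholds, the genes called higher in pHeps numbered 4267 to 4582 and those called lower 4632 to 5265, against 4536 and 5057. The lowest counts came from leaving out single MEF and pHeps libraries (4267 to 4342 higher and 4632 to 4952 lower). An adjusted p below 0.01 gave 4014 and 4513, and no fold threshold gave 6011 and 6507. DESeq2 gave 4421 and 5084, with no adjusted p for 58 genes. A fit of the 5 libraries with library size only was chosen after seeing the data and gave 4337 and 4922. Ly6g, called higher from 8 counts in pHeps 1, had a fitted log2 fold change of 0 without pHeps replicate 1, since no count was left, and 6.15 without pHeps replicate 2; MEF held no count, so the latter depends on the prior count and the bound was at least 9.06-fold. Deviations of same-numbered libraries from their group means had correlations of 0.033 and 0.024 over 2 pairs. These 2 values are not independent, since 2 pHeps libraries deviate from their mean in equal and opposite ways. They do not settle whether the numbers pair libraries. With the replicate number as a block, 4535 genes were called higher and 5083 lower. With 2 pHeps libraries, leaving out 1 gives that group the spread of the other groups. Differences of genes at few counts are limited by depth, and the confounding of table and cell type could not be removed by any alternative.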
